A study of Mus musculus with 6 samples.

Results

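Transcript levels of 10 JmjC histone demethylases outside the KDM5 family were read in neonatal mouse cardiomyocytes cultured with cell-permeable α-ketoglutarate (αKG). The genes were *Kdm2a*, *Kdm2b*, *Kdm3a*, *Kdm3b*, *Kdm4a*, *Kdm4b*, *Kdm4c*, *Kdm6b*, *Kdm7a* and *Kdm8*, chosen by their names and family, and all 10 were found among the 20066 genes of the deposited table. Total RNA had been sequenced from cardiomyocytes of mice of the C57BL/6 strain at postnatal day 0 to 1. Per the labels, 3 cultures received αKG at 100 µM for 96 h and 3 received the solvent DMSO for the same time. The study's methods name an octyl ester of αKG, another concentration and a range of culture times, and they describe each neonatal sample as an isolation from pooled hearts. The labels do not say whether the libraries came from separate isolations, so p-values measure the spread between these samples, which may be technical.

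JmjC demethylases remove methyl groups from histone lysines by hydroxylating them, and they consume oxygen and αKG and need ferrous iron to do so. αKG is thus a substrate of the enzymes themselves, whereas the values here measure the amount of their mRNA and say nothing of enzyme activity or of histone methylation. The KDM2 and KDM4 enzymes act on H3K36 and, for KDM4, also on H3K9. The KDM3 enzymes act on H3K9, KDM6B acts on H3K27, and KDM7A acts on H3K9 and H3K27. The study also counts *Kdm2b* among αKG-dependent demethylases of H3K4me3, and reports their expression as unchanged after inactivation of *Cpt1b* in mice. H3K9 and H3K27 methylation mark silent chromatin, and their removal goes with gene activation. *Kdm3a*, *Kdm4b*, *Kdm4c* and *Kdm6b* are textbook examples of demethylase genes that are induced by low oxygen. KDM8 (JMJD5) was first described as an H3K36 demethylase, but an arginyl hydroxylase and peptidase activity is also ascribed to it, and the deposited table annotates it by the latter.

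The sequence before the annotated start sites is shown first, because CpG content and a HIF core motif, the short DNA word read by hypoxia-inducible factors, are features that the choice of genes did not use. Windows of 250 bases upstream of each RefSeq start (GRCm38.p6) were searched on both strands for ACGTG and GCGTG, so that CACGT and CACGC are the same words read from the other strand. RefSeq windows were matched for 6 of the 10 genes (*Kdm2b*, *Kdm3a*, *Kdm4a*, *Kdm4c*, *Kdm7a* and *Kdm8*), with 12 windows in all. One window each is printed for a gene with 0, 1, 2 and 6 matches, 5′ to 3′ on the gene's own strand, with the matched letters in capitals.
Kdm4a, chr4:118180044-118180293, minus strand: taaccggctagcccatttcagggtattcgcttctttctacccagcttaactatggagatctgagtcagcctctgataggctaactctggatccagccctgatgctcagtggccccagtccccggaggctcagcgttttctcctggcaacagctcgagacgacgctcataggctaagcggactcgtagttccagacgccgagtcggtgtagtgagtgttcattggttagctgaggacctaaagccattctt
Kdm3a, chr6:71632918-71633167, minus strand: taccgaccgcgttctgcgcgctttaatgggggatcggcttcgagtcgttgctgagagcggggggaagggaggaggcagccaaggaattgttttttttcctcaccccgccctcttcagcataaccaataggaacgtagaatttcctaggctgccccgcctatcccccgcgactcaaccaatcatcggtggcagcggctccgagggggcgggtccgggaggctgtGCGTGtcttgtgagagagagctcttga
Kdm7a, chr6:39206774-39207023, minus strand: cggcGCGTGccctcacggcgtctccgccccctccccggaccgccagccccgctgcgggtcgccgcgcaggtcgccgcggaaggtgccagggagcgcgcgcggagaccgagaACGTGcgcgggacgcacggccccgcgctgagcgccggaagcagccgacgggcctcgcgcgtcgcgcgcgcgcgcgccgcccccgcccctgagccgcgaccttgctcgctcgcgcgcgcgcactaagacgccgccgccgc
Kdm4c, chr4:74251629-74251878, plus strand: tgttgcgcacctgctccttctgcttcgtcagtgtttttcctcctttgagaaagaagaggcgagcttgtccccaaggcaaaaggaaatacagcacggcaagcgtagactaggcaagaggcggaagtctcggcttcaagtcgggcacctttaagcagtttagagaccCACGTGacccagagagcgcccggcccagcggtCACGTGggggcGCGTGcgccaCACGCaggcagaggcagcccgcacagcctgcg

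The 4 printed windows hold 12 CpG dinucleotides for *Kdm4a*, 20 for *Kdm3a*, 56 for *Kdm7a* and 19 for *Kdm4c*, where the median over 32851 windows of 27025 genes was 6. Of the 12 windows, 10 were above that median. At least 1 match of the motif stood in 8 of the 12 windows, against 38.6% of all windows, and at least 2 matches stood in 16.7% of all windows. *Kdm2b* alone accounts for 4 of these 8 windows, of which 2 overlap and hold the same matches, so the windows are not independent. In *Kdm4c* 4 of the 6 matches come from 2 copies of the palindrome CACGTG, each of which is counted once on either strand. *Kdm4c* also has a second annotated start, whose window (chr4:74242247-74242496) holds 0 matches and 0 CpG. Of the 3 windows of *Kdm3a*, only the printed one holds a match. Each searched word holds a CpG, so windows with more CpG have more places for a match, and the comparison was not matched for CpG content. A match is a string of letters and not a measured binding site.

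The group comparison has to be read with the libraries in view. Library totals differed by up to 2.41% after the authors' scaling, and the estimated reads in genes lay between 3726069 and 4427587 per library. αKG replicate 3 correlated at 0.962 and 0.963 with the other αKG libraries and at 0.977 to 0.980 with the DMSO libraries (Pearson over log2 values of all genes), so each result below is also given without it where that matters. The cardiomyocyte label was borne out by its markers: all 10 listed markers were present, led by *Ttn* (51569 to 84136 normalized counts) and *Ryr2* (8448 to 11406). Their sum, most of it *Ttn*, was 77054 to 79760 in DMSO and 110176, 113215 and 81680 in αKG replicates 1 to 3. In 3 of these 10 markers every αKG library was above every DMSO library, and in 1 below. Such layouts held for 13.7% and 14.6% of all genes. Markers of other cells were present too. Of 8 endothelial markers 7 fell in αKG (limma, adjusted p under 0.05), where 0.952% of all genes passed lower. The remaining marker, *Tek*, had means of 64.7 in DMSO and 88.3 in αKG, with groups that overlapped. The summed level of the 8 was 1539 to 1672 in DMSO and 700 to 1019 in αKG. The summed fibroblast markers were 5054 to 5275 in DMSO and 9624, 9295 and 4886 in αKG replicates 1 to 3. The summed epicardial markers were 396 to 427 against 815, 807 and 412, and the mural markers 2193 to 2339 against 2576 to 3253. Every αKG library was above every DMSO library in 2 of 8 fibroblast, 2 of 6 epicardial and 1 of 7 mural markers. This held for 13.7% of all genes. *Fn1* and *Col1a1* had the highest means of the fibroblast list, where *Tcf21* had means of 61.3 in DMSO and 53.0 in αKG. Of the mural list *Cspg4* had means of 808 and 1293, and *Kcnj8*, at 0 to 4 counts, was lower in every αKG library. Only 4 of 8 macrophage markers were listed, with sums of 22 to 41 in any library. Of 14 cell cycle genes 4 passed higher in αKG (limma, adjusted p under 0.05), where 2.83% of all genes did. In 7 of the 14 every αKG library was above every DMSO library. The summed cell cycle genes were 7494, 5254 and 4094 in DMSO replicates 1 to 3 and 8637 to 9960 in αKG. In such bulk samples fewer cells of a type and less RNA per cell cannot be told apart, and the part of these shifts in the results below was not tested.

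Whether αKG treatment was accompanied by different demethylase mRNA levels was asked in a limma fit over all 20066 genes. 0 of the 10 genes passed an adjusted p under 0.05, where 3.78% of all genes did (2.83% higher and 0.952% lower), and 0 passed with limma-voom on the estimated reads, which called 338 of the 20066 genes, 94 of them lower. Their adjusted p-values ran from 0.0527 for *Kdm4b* to 0.983 for *Kdm8*. Without adjustment, 6 of the 10 had a p under 0.05, each with a lower αKG mean, where 28.1% of all genes had such a p, 12.4% in that direction. The same unadjusted threshold was passed in the higher direction by 15.7% of all genes and by 0 of the 10.

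The values nonetheless lay on one side. In 8 of the 10 genes every αKG library was below every DMSO library, which held for 14.6% of all genes and for 27.2% of the 8176 protein coding genes whose mean was 100 or more, a level that 9 of the 10 reach. In 0 of the 10 was every αKG library above, as it was in 13.7% of all genes. The 2 exceptions were *Kdm2a* and *Kdm8*, whose groups overlapped with the authors' scaling. With libraries scaled to the same total or to the total without *Ttn*, and with quantile normalization, *Kdm2a* was also lower in every αKG library. The median difference over the 10 genes was -0.20 on the log2 scale, where the median of all genes was 0.04 and that of those 8176 coding genes was -0.09. The summed normalized count of the 10 genes was 6538 to 6776 in DMSO and 5791 to 6036 in αKG.

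**Figure D1:**
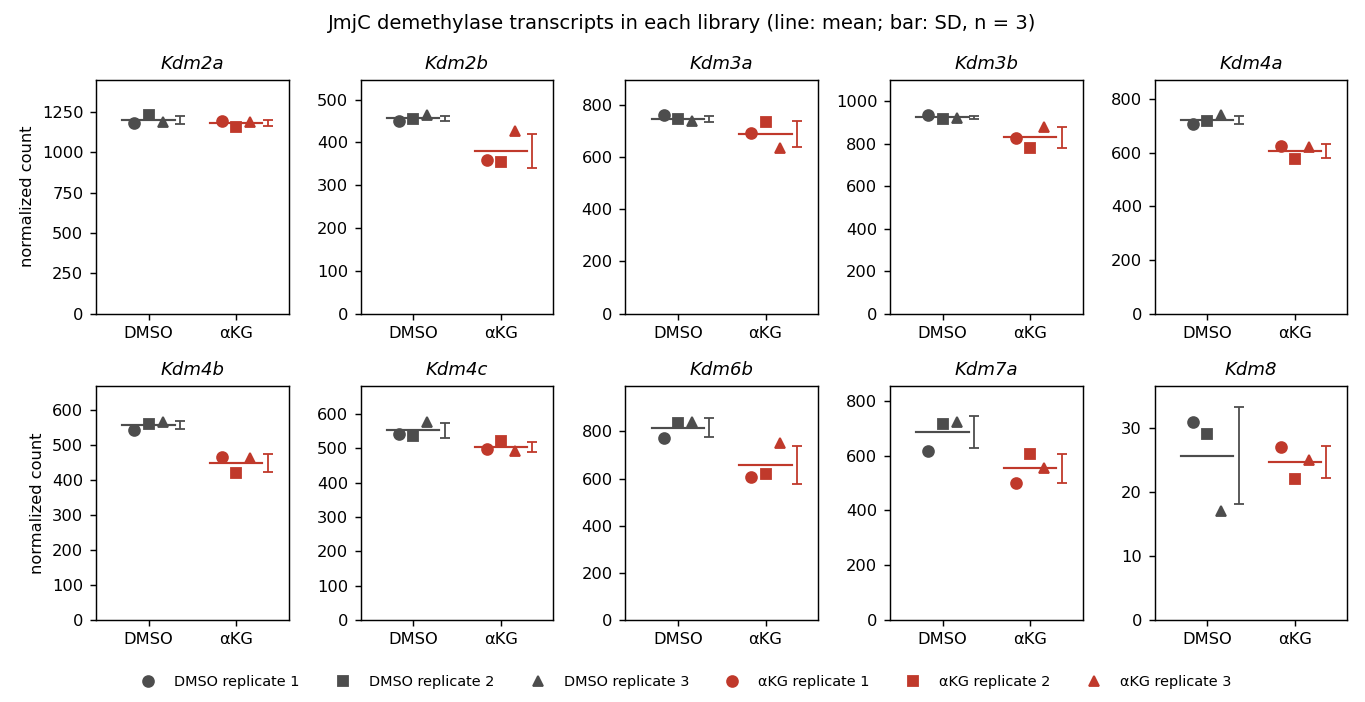
Normalized counts of the 10 demethylase genes in each of the 6 libraries, with the mean as a line and the SD as a bar (n = 3 per group), each vertical axis starting at 0. In 8 panels all αKG points lie below all DMSO points, and in *Kdm2a* and *Kdm8* the groups overlap.

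The KDM4 genes, whose enzymes act on trimethylated H3K9 and H3K36, were all lower in αKG but by unequal amounts. *Kdm4b* (ENSMUSG00000024201, GRCm38 chr17:56326062-56402870, plus strand) had 543, 559 and 566 normalized counts under DMSO and 465, 418 and 461 in αKG replicates 1 to 3. The groups were well apart, with 465 the highest αKG and 543 the lowest DMSO value, and αKG replicate 3 lay between the other αKG libraries. The difference was -0.31 ± 0.08 on the log2 scale (SE, limma adjusted p = 0.0527), or -19.4% of the DMSO mean. *Kdm4b* passed the threshold in 4 of 17 alternative fits, among them the fit without genes of a mean under 10 (limma adjusted p = 0.0461, where 2.07% of genes passed lower) and that with libraries scaled to the same total (limma adjusted p = 0.0452, where 1.53% did).

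*Kdm4a* (ENSMUSG00000033326, chr4:118136957-118180043, minus strand) had 708, 720 and 739 normalized counts under DMSO and 625, 577 and 621 in αKG. Again the groups were apart, with αKG replicate 2 lowest. The difference was -0.25 ± 0.07 (SE, limma adjusted p = 0.0676). *Kdm4c* (ENSMUSG00000028397, chr4:74242497-74405860, plus strand) had 542, 537 and 578 in DMSO and 497, 521 and 492 in αKG, a narrower gap of 521 against 537 between the nearest libraries, with a difference of -0.13 ± 0.07 (SE, limma adjusted p = 0.255). *Kdm4d*, the remaining mouse paralogue looked for, was not listed. Summed over the 3 listed genes, the mean was 1831 in DMSO and 1559 in αKG.

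The H3K27 demethylase gene *Kdm6b* (ENSMUSG00000018476, chr11:69398508-69413675, minus strand) encodes JMJD3, known for opening Polycomb-silenced genes during development and inflammation. It had 771, 836 and 842 normalized counts under DMSO and 606, 619 and 750 in αKG. αKG replicates 1 and 2 were far below the DMSO libraries, and αKG replicate 3 was just below the lowest of them, at 750 against 771. The difference was -0.32 ± 0.09 (SE, limma adjusted p = 0.0774), the largest in size of the 10 together with those of *Kdm4b* and *Kdm7a*, from which it differed by less than its SE.

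*Kdm7a* (ENSMUSG00000042599, chr6:39136623-39206789, minus strand) encodes a demethylase of dimethylated H3K9 and H3K27 that is recruited through a PHD finger. Its values were 618, 717 and 725 in DMSO and 499, 605 and 557 in αKG. DMSO replicate 1, at 618, was just above the highest αKG library, at 605, so the separation rests on a narrow gap. The difference was -0.31 ± 0.10 (SE, limma adjusted p = 0.085).

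The H3K9 demethylase genes of the KDM3 family differed less. *Kdm3b* (ENSMUSG00000038773, chromosome 18) had 934, 919 and 920 normalized counts under DMSO and 829, 782 and 881 in αKG, a difference of -0.16 ± 0.07 (SE, limma adjusted p = 0.164). *Kdm3a* (ENSMUSG00000053470, chr6:71588972-71632990, minus strand), which encodes a coactivator of the androgen receptor, had 760, 747 and 737 in DMSO and 694, 733 and 634 in αKG, with -0.125 ± 0.07 (SE, limma adjusted p = 0.29). In both genes the groups were apart, but αKG replicate 2 of *Kdm3a*, at 733, lay next to DMSO replicate 3, at 737. Of the exons of *Kdm3b*, 24.6% overlap the lincRNA *Gm26538* on the other strand, which was not among the listed genes. Whether the counting used strand is not given in the sources used here.

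Among the H3K36 genes, *Kdm2b* and *Kdm2a* went apart. *Kdm2b* (ENSMUSG00000029475, chr5:122870665-122989823, minus strand) encodes the CXXC protein that brings a variant Polycomb complex to CpG islands. It had 450, 455 and 463 normalized counts under DMSO and 358, 355 and 427 in αKG, a difference of -0.27 ± 0.09 (SE, limma adjusted p = 0.106). As in *Kdm6b*, αKG replicate 3 lay much closer to the DMSO libraries than replicates 1 and 2 did. Exons of *Rnf34* on the other strand overlap 5.77% of its exon length.

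*Kdm2a* (ENSMUSG00000054611, chr19:4314419-4398285, minus strand), the other CpG-binding member, had 1181, 1229 and 1189 in DMSO and 1192, 1159 and 1188 in αKG. The groups overlapped and the means were 1200 ± 25.7 and 1180 ± 18 (SD, n = 3 each), with a difference of -0.02 ± 0.06 (SE, limma adjusted p = 0.802). Its difference lay between -0.05 and -0.01 over 17 alternative fits and passed in none of them. *Kdm8* (ENSMUSG00000030752, chr7:125444676-125462269, plus strand) had 31, 29 and 17 normalized counts under DMSO and 27, 22 and 25 in αKG. At this depth its counting error alone was 0.29 on the log2 scale per library, against 0.04 to 0.07 for the other 9 genes, and no difference was detectable (-0.02 ± 0.29, SE, limma adjusted p = 0.983).

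**Figure D2:**
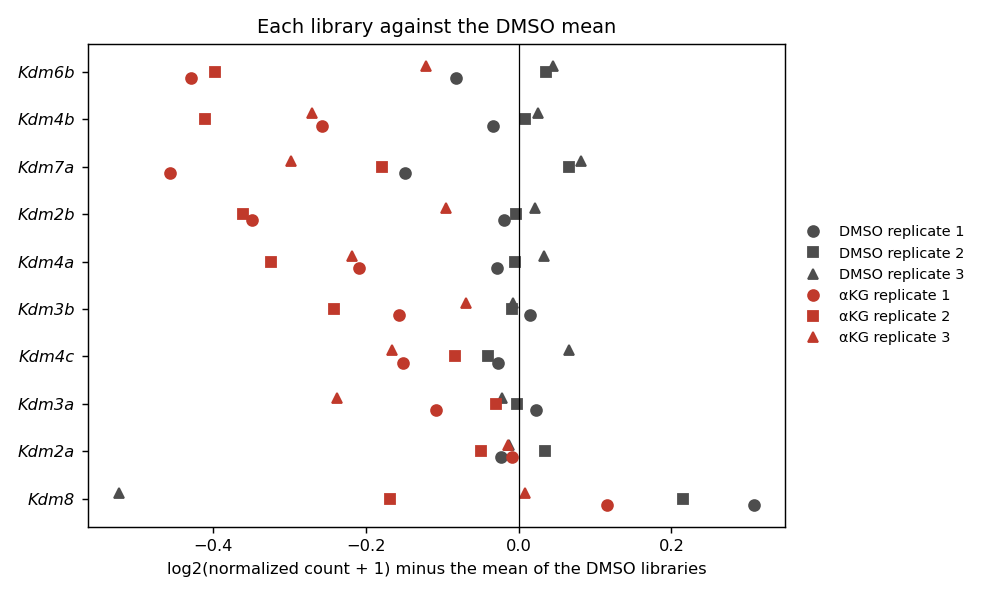
Each library's log2(normalized count + 1) minus the mean of the 3 DMSO libraries, for the 10 genes ordered by their group difference. In *Kdm2b*, *Kdm3b* and *Kdm6b* αKG replicate 3 sits between the other αKG libraries and DMSO, and in *Kdm3a* and *Kdm4c* it is the lowest.

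The genes thus fell into sets by where αKG replicate 3 lay. In *Kdm2b*, *Kdm3b* and *Kdm6b* it showed 26.7%, 34.8% and 29.3% of the mean log2 difference that αKG replicates 1 and 2 had from DMSO. In *Kdm4a*, *Kdm4b* and *Kdm7a* it lay between replicates 1 and 2 and showed 81.8%, 80.8% and 93.8% of it. In *Kdm3a* and *Kdm4c* it was below both, at -0.24 and -0.17 from the DMSO mean, where replicates 1 and 2 of *Kdm3a* were at -0.11 and -0.03. Without αKG replicate 3 the difference of *Kdm3a* was -0.07 in place of -0.125. In *Kdm3a*, *Kdm4a*, *Kdm4b*, *Kdm4c* and *Kdm7a* the αKG library that resembled DMSO most across all genes was thus as far from DMSO as the other αKG libraries or nearly so.

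Without αKG replicate 3, 5 of the 10 genes passed the threshold, all lower, where 37.2% of all genes passed and 17.9% did so lower. They were *Kdm6b* (-0.41, limma adjusted p = 0.00259), *Kdm2b* (-0.35, 0.00298), *Kdm4b* (-0.33, 0.00777), *Kdm4a* (-0.27, 0.00985) and *Kdm3b* (-0.20, 0.0138). *Kdm2a*, *Kdm3a*, *Kdm4c*, *Kdm7a* and *Kdm8* did not pass there. Leaving out any other single library gave 0 calls among the 10, but those fits called only 0 to 152 of all 20066 genes.

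The differences depended on a joint correction for GC content and length. The exon GC content of the 10 genes ran from 39.6% in *Kdm7a* to 59.6% in *Kdm6b*, where the same 8176 coding genes had a median of 48.8%, and 8 of the 10 were longer than their median exon length of 5.38 kb. When a smooth trend of the log2 values on GC content and length was removed from each library, the difference of all 6 genes above the GC median became less negative or turned positive, and that of all 4 below it became more negative or hardly moved. *Kdm6b* went from -0.32 to -0.11, *Kdm4b* from -0.31 to -0.12 and *Kdm4a* from -0.25 to -0.09. *Kdm7a* went the other way, from -0.31 to -0.48, and was the one gene of the 10 to pass (limma adjusted p = 0.031), in a fit where 4.46% of all genes passed and 1.26% did so lower. After the correction every αKG library was below every DMSO library in 5 of the 10 genes (*Kdm2b*, *Kdm3a*, *Kdm3b*, *Kdm4c* and *Kdm7a*), against 14.2% of all genes. The groups of *Kdm4a*, *Kdm4b* and *Kdm6b* then overlapped, and the part of GC content or of length in their uncorrected differences was not tested.

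**Figure D3:**
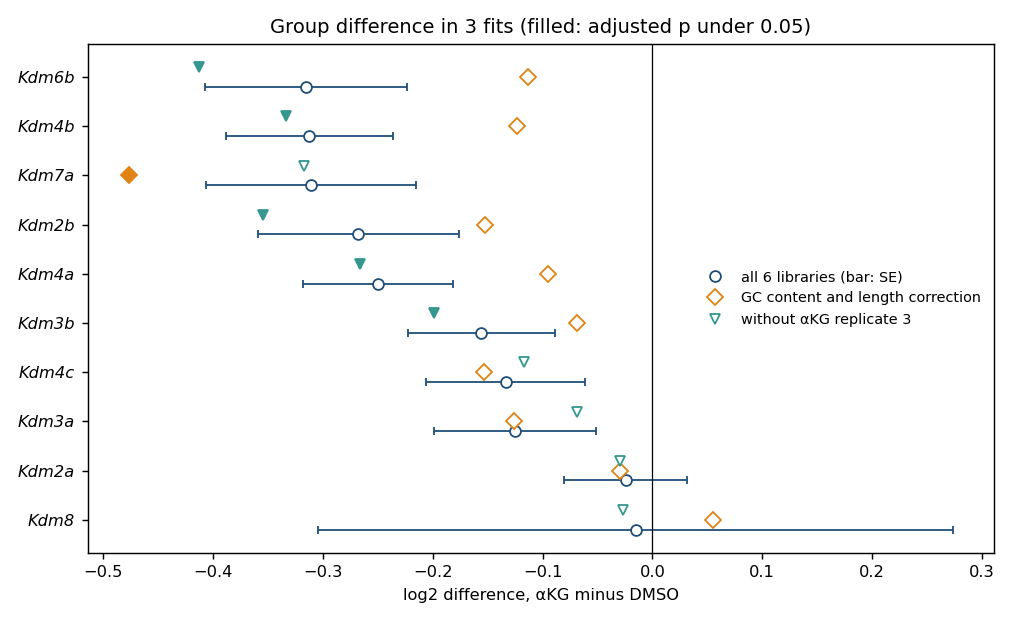
Log2 difference between αKG and DMSO for the 10 genes in 3 fits: all 6 libraries (circles, with the SE), after the GC content and length correction (diamonds), and without αKG replicate 3 (triangles). Filled symbols had an adjusted p under 0.05, which was the case for 0 circles, for the diamond of *Kdm7a* and for 5 triangles.

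Ratios between paralogues were read within each library, since scaling cancels in them. The count of *Kdm2a* per count of *Kdm2b* was 2.62, 2.70 and 2.57 in DMSO and 3.33, 3.27 and 2.78 in αKG. All 3 αKG ratios were above all DMSO ratios, and αKG replicate 3 was nearest to them. The log2 difference was 0.24, with a counting error of 0.07, and 0.33 without αKG replicate 3. After the GC content and length correction it was 0.12, with groups that still did not overlap.

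Within the KDM4 family, *Kdm4a* and *Kdm4b* kept a near-constant proportion. Their ratio was 1.30, 1.29 and 1.31 in DMSO and 1.34, 1.38 and 1.35 in αKG. Although these groups did not overlap, the log2 difference of 0.06 was smaller than its counting error of 0.07. *Kdm4c* had 1.00, 0.96 and 1.02 counts per count of *Kdm4b* in DMSO and 1.07, 1.25 and 1.07 in αKG, a log2 difference of 0.18 with a counting error of 0.07. In the KDM3 family the ratio of *Kdm3a* to *Kdm3b* overlapped between the groups (0.801 to 0.814 in DMSO and 0.720 to 0.937 in αKG). Unlike scaling, GC content and length do not cancel in these ratios: after that correction all KDM3 and KDM4 ratios overlapped between the groups, and that of *Kdm4c* to *Kdm4b* differed by -0.03 in place of 0.18. The ratios are descriptions and were not tested.

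**Figure D4:**
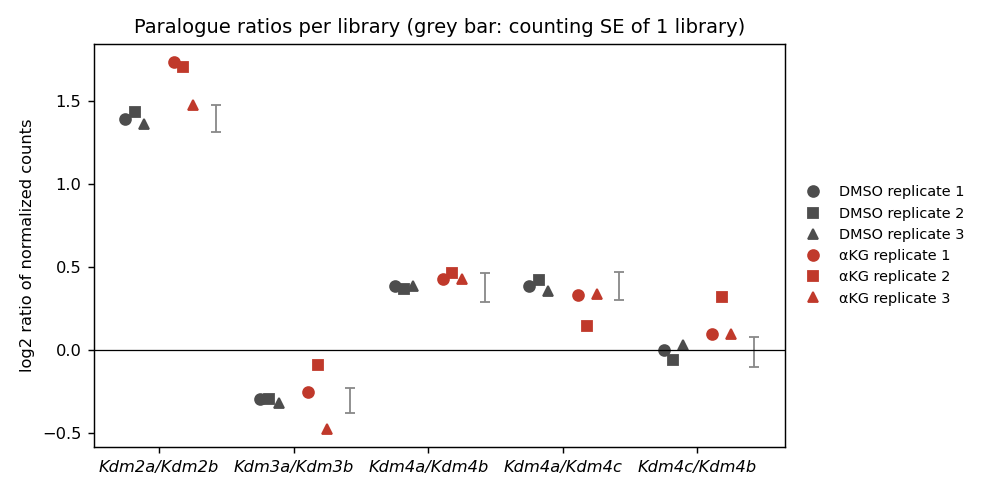
Log2 ratio of the normalized counts of paralogous demethylase genes in each library, with a grey bar for the counting error (SE) of the ratio in 1 library. The 3 αKG points of *Kdm2a*/*Kdm2b* lie above the DMSO points, and those of *Kdm3a*/*Kdm3b* lie on both sides of them.

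Levels were compared between genes per kilobase of exon (GENCODE M21). In DMSO the order was *Kdm4a* (124.9 ± 2.7 normalized counts per kb, SD, n = 3), *Kdm6b* (117.4 ± 5.66), *Kdm4b* (113.6 ± 2.41), *Kdm4c* (94.9 ± 3.84), *Kdm3a* (90.9 ± 1.4), *Kdm2a* (83.0 ± 1.78), *Kdm7a* (68.3 ± 5.93), *Kdm3b* (65.6 ± 0.595), *Kdm2b* (41.9 ± 0.603) and *Kdm8* (10.7 ± 3.17). The neighbours *Kdm6b* and *Kdm4b*, *Kdm4c* and *Kdm3a*, and *Kdm7a* and *Kdm3b* overlapped in their libraries. In αKG each of the first 5 pairs of neighbours overlapped. There *Kdm3b* (58.9 ± 3.51) came before *Kdm7a* (55.0 ± 5.28), but the libraries of these genes overlapped as well. The order depended on the length used, since the coding part is a small share of the exons in some of the genes (3.48 of 14.4 kb in *Kdm2a* and 3.19 of 5.78 kb in *Kdm4a*). Per kilobase of coding sequence *Kdm2a* stood first and *Kdm4a* took rank 3, and by the longest transcript *Kdm3a* took rank 2. *Kdm8* was last by all 3 lengths.

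**Figure D5:**
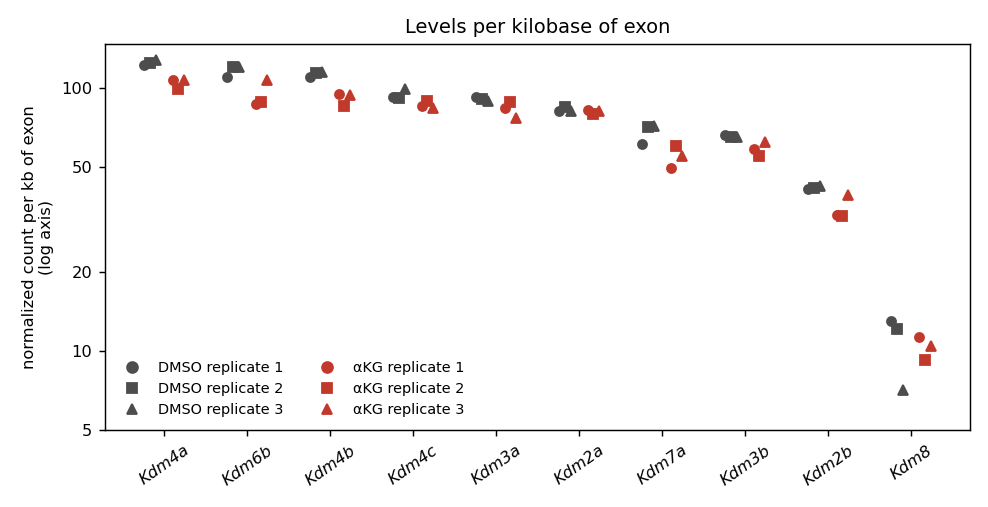
Normalized counts per kilobase of exon for the 10 genes in each library on a log axis, ordered by the DMSO mean. *Kdm8* lies far below the other 9 genes, and the αKG points lie below the DMSO points in every gene except *Kdm2a* and *Kdm8*.

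Over the 6 libraries the log2 values of *Kdm4a* and *Kdm4b* were correlated at 0.999, those of *Kdm2b* and *Kdm6b* at 0.985 and those of *Kdm2b* and *Kdm3b* at 0.958 (Pearson). Pairs with *Kdm8* lay between -0.453 and 0.337. Among the 8295 genes whose mean was 100 or more, the patterns most like that of *Kdm4b*, the gene with the smallest p of the 10, were those of *Kdm4a* (0.999), *Abcf3* (0.997) and *Sprtn* (0.996). *Abcf3* had 332, 333 and 352 normalized counts under DMSO and 262, 227 and 258 in αKG, with αKG replicate 2 lowest as in *Kdm4a* and *Kdm4b*. These correlations describe 6 libraries that fall into 2 treatment groups and share their scaling, so genes that differ between the groups tend to correlate. This was not so for every pair. *Kdm3a*, also lower in every αKG library, correlated at 0.23 with *Kdm2b*, 0.239 with *Kdm3b* and 0.243 with *Kdm6b*.

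Genes of the same chemistry and of the opposing enzymes were read from 7 lists with 51 listed genes. 0 of the 51 passed the adjusted threshold (3.78% of all genes did), and 14 had an unadjusted p under 0.05, 9 lower and 5 higher, a share near the 28.1% of all genes. The 15 other JmjC oxygenases had a median of -0.12, so they leaned lower too. In 2 of the 15 every αKG library was below every DMSO library, and in 1 above. These layouts held for 14.6% and 13.7% of all genes. Among these 15, the gene with the smallest p was *Hr*, which encodes the H3K9 demethylase hairless and ran against the 10 genes. It had 209, 162 and 158 normalized counts under DMSO and 245, 230 and 283 in αKG (0.52 ± 0.14, SE, limma adjusted p = 0.0608). All 3 αKG libraries were above all DMSO libraries, and *Hr* passed after quantile normalization, after the GC content and length correction and without αKG replicate 3.

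The FAD-dependent demethylases, which do not use αKG, were lower too. *Kdm1a* (LSD1) had 539, 581 and 544 normalized counts under DMSO and 382, 416 and 475 in αKG (-0.39 ± 0.09, SE, limma adjusted p = 0.0507), and *Kdm1b* 350, 351 and 348 against 223, 241 and 315 (-0.44 ± 0.13, SE, limma adjusted p = 0.0733). In both genes the groups were apart and αKG replicate 3 was the αKG library nearest to DMSO. Lists of methyltransferases for the same lysines had medians of -0.08 for H3K9 (6 genes), -0.05 for H3K27 and core PRC2 (6 genes) and 0.04 for H3K36 (5 genes), with the smallest p in *Suv39h2* (0.86, adjusted p = 0.111), *Ezh1* (-0.29, adjusted p = 0.0764) and *Nsd2* (0.26, adjusted p = 0.122). *Ezh1*, the catalytic PRC2 subunit of non-dividing cells, was below DMSO in every αKG library, at 272 to 293 against 342 to 362. Its difference was -0.16 after the GC content and length correction. *Ezh2* of the same list lay the other way, with 395, 383 and 344 normalized counts under DMSO and 428, 398 and 523 in αKG (0.26, limma adjusted p = 0.167).

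The partners of KDM2B in the variant Polycomb complex had a median of -0.20 over 8 genes, of which 4 had groups that did not overlap, all lower, where 14.6% of all genes and 27.2% of the coding genes with a mean of 100 or more were lower in this way. The smallest p was that of *Bcorl1*, a corepressor of that complex, with 543, 565 and 569 in DMSO and 411, 429 and 522 in αKG (-0.31 ± 0.10, SE, limma adjusted p = 0.0905), the same layout as in *Kdm2b* itself, and -0.16 after the GC content and length correction. Readers of H3K9 and H3K27 methylation had a median of 0.12 over 9 genes, with the smallest p in *Cbx5*, the gene of HP1α (0.28, limma adjusted p = 0.149), whose groups overlapped. Without αKG replicate 3, 19 of the 51 genes passed, 17 of them lower, where 37.2% of all genes passed in that fit, 17.9% lower.

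Because some demethylase genes answer to oxygen, the HIF target list was read beside them. 0 of its 13 genes passed, 6 had an unadjusted p under 0.05, all higher, and in 2 the αKG libraries were all above the DMSO libraries. Of all genes, 3.78% passed, 15.7% had such a p in the higher direction and 13.7% had all αKG libraries above. *Vegfa* had 840, 863 and 910 normalized counts under DMSO and 1350, 1396 and 838 in αKG, and *Ldha* 707, 718 and 737 against 836, 865 and 673. Both were higher in αKG replicates 1 and 2 and not in replicate 3. Without αKG replicate 3 both *Vegfa* (0.66, limma adjusted p = 0.000557) and *Ldha* (0.24, limma adjusted p = 0.00741) passed, where 37.2% of all genes did. Of the demethylase genes, *Kdm3a*, *Kdm4b*, *Kdm4c* and *Kdm6b* are known to be oxygen-responsive. With the authors' scaling these genes were lower in those same αKG replicates 1 and 2 than in any DMSO library. In *Kdm3a* the gap was narrow, at 733 in αKG replicate 2 against 737 in DMSO replicate 3. After the GC content and length correction this no longer held for *Kdm4b* and *Kdm6b*. Whether the levels of the HIF targets bear on those of the demethylase genes was not tested. The cell cycle genes *Mki67* (0.78, limma adjusted p = 0.034) and *Top2a* (1.02, limma adjusted p = 0.0289) rose, and the endothelial genes *Cdh5* (-1.04, limma adjusted p = 0.0181) and *Kdr* (-1.14, limma adjusted p = 0.0293) fell, with all 3 αKG libraries on the same side in each. Each of these 4 calls was lost in 7 or 8 of 17 alternatives, among them the replicate block and the fits without αKG replicate 1 or 2. Their part in the differences of the demethylase genes was not tested.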

How the data were processed

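Total RNA of 6 cultures was sequenced after a stranded total RNA library preparation. The authors aligned reads to mm10 (GRCm38) with STAR 2.7.10a after trimming with Trimmomatic 0.39, counted exon reads per gene with featureCounts 2.0.3, excluded ambiguous and multiply aligned reads, and ran DESeq2 1.30.1 (versions from the submitters' processing notes). The deposited values are treated as a score, because the authors had scaled counts per library and rounded them to whole numbers. Every listed gene reached 2 in 1 library or more. Columns of the authors' own comparison (fold change and p-values) were not used.

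The genes and lists were chosen with earlier results of these data known. limma 3.58.1 (R 4.3.3) was fitted to log2(value + 1) of all 20066 genes with treatment as the only term and a variance trend, with Benjamini-Hochberg adjustment. A log2 difference on this scale understates changes of low genes. Reads per library were estimated from the spacing of low values, and counting errors, which cover counting only since no molecular identifiers were used, come from them. The fit was tested on simulated data. Lengths and GC content were those of GENCODE M21, which had the table's positions for 99% of genes, and promoter windows came from RefSeq (Python 3.11.15). Across all genes DMSO replicates 2 and 3 differed by about sampling noise (chi-square 1.02 per gene, against 1.43 and 1.93 for the other DMSO pairs). Of the 14 cell cycle genes, however, 13 were higher in DMSO replicate 2 than in replicate 3. These replicates were kept as 2 samples.

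All 10 genes were named. Of each related list the gene with the smallest p was named, since none passed, and of each marker, HIF and cell cycle list the 2 with the highest mean. For *Kdm4b*, with the smallest p of the 10, the 3 most similar patterns were named. *Kdm1b*, *Ezh2*, *Tcf21*, *Kcnj8* and *Tek* were added after their values were seen. Alternatives were a filter at a mean of 10, a pseudocount of 0.1, scalings, quantile normalization, a replicate block, GC content and length correction, limma-voom, averaging of DMSO replicates 2 and 3, and leaving out each library. Scaling without *Ttn* and the correction of the paralogue ratios were added after seeing the data.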

Additional observations from a re-analysis of the deposited data

How the results depend on the processing

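The count of genes passing over the whole table, 759, was 27 without the variance trend, 346 with a pseudocount of 0.1, 338 with limma-voom, 19 with DMSO replicates 2 and 3 averaged, 5648 without adjustment and 0 to 7466 over the fits without 1 library. Of the 10 demethylase genes, 0 passed, and 1 passed with the filter, with libraries scaled to the same total, with the total without *Ttn* (*Kdm4b* in each) and with the GC content and length correction (*Kdm7a*), 6 without adjustment and 0 to 5 over the fits without 1 library. Of the 51 related genes, 0 passed, and 1 passed with the filter, with the same total, with the total without *Ttn* and with quantile normalization, 2 with the GC content and length correction, 14 without adjustment and 0 to 19 over the fits without 1 library. The groups were apart and lower in 8 of the 10 genes and in 5 with the GC content and length correction. With the same total or the total without *Ttn* this was so in 9, *Kdm2a* being added. With quantile normalization it was so in 7, with *Kdm2a* added and *Kdm3a* and *Kdm4c* dropping out. Without αKG replicate 3, the *Kdm2a*/*Kdm2b* ratio differed by 0.33 and the *Kdm3a*/*Kdm3b* ratio by 0.13 in place of 0.24 and 0.03. After the GC content and length correction, added for the ratios after seeing the data, *Kdm2a*/*Kdm2b* differed by 0.12, and *Kdm4a*/*Kdm4b* by 0.028 in place of 0.063. The ratios *Kdm3a*/*Kdm3b* (-0.058), *Kdm4a*/*Kdm4c* (0.059) and *Kdm4c*/*Kdm4b* (-0.031) then reversed.

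Same-numbered libraries were hardly correlated within their groups (-0.035, 0.0567 and 0.0172), which with so few libraries does not decide whether the samples were paired. Of 6 libraries, 3 correlated best with the library of their own number. With the replicate block 46 genes passed, and 1252 with the GC content and length correction together with the block, where 1 demethylase gene (*Kdm7a*, adjusted p = 0.016) and 2 related genes passed. The calls of *Mki67* (adjusted p = 0.076), *Top2a* (0.0738), *Cdh5* (0.0542), *Kdr* (0.0788) and *Cspg4* (0.0829) were lost with the block. Uncalled values reversed for *Kdm8* (0.055 with the GC content and length correction, with or without the block, and -0.28 to 0.14 over the fits without 1 library), *Ttn* (-0.10 with that correction, with or without the block), *Ryr2* (-0.12 with quantile normalization) and *Mrc1* (-0.33 to 0.084 without 1 library). The cause was not tested. Of the 10 genes' values under an alternative, 155 kept their direction and side of the threshold, 10 gained a call and 5, all of *Kdm8*, reversed. Of the named genes of the lists, 326 values were unchanged in this sense, 20 gained and 41 lost a call, and 4 reversed. The depth limits *Kdm8*, at 17 to 31 normalized counts.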
